A study of Rattus norvegicus with 6 samples.

Results

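The untreated astrocyte culture was compared with the untreated neuron culture of the rat hippocampus, gene by gene, to describe what distinguished these cultures before any insulin was added. Both were primary cultures, and the labels give no strain, animal age or number of animals. The series held 6 libraries, with a control and cultures given 200 nM insulin for 6 h or 12 h from each cell type, and its stated purpose was the effect of insulin on lipid metabolism in the brain. The controls received saline and are labelled untreated at time 0. The astrocytes were grown in DMEM/F12 with 10% FBS (foetal bovine serum) and 25 mM glucose, and were moved to 2% FBS and 5 mM glucose 4 h before treatment. Neurons were kept without serum in Neurobasal with 1% B27, and this supplement was free of insulin for the 4 h before treatment. Cell type, serum, medium and culture surface therefore differed together and cannot be told apart.

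Values were FPKM, fragments per kilobase scaled to the mapped fragments of the library, deposited as log2. The deposited values were also quantile-normalised, that is, brought to nearly the same distribution in all 6 libraries. Whether fragments were counted over exons, transcripts or whole genes is not given in the sources used here. Differences are log2 values in the astrocyte-labelled control minus those in its neuron-labelled counterpart, so that 1 is a 2-fold higher astrocyte value and -1 a 2-fold higher neuron value. Of 37183 gene symbols, 7146 had a value in both controls and 1 FPKM (log2 value of 0) or more in at least 1 of them. A further 119 symbols reached 1 FPKM in 1 control and were blank, that is listed with no value, in the other. They are given apart, with no fold. Where values are set against each other, that of the astrocyte-labelled control comes before that of the neuron-labelled control. Each group was 1 library, so no difference here has a replicate check, an error or a test. The insulin libraries of the same labels show whether a difference recurred at 6 h and 12 h, but they are other conditions and not replicates.

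At least 2-fold higher values were found for 1337 genes (18.7%) in the astrocyte-labelled and for 1565 genes (21.9%) in the neuron-labelled control, 2902 (40.6%) in all. The median difference over all 7146 genes was -0.105, and the middle of the distribution ran from -0.85 to 0.68 (quartiles). Centring the differences on that median gave 1473 and 1436 genes, so which control had the larger count depended on the scaling. After quantile normalisation the number of symbols at 1 FPKM follows the number with a value. These were 5781 of 22891 in the astrocyte-labelled and 6042 of 23927 in the neuron-labelled control. Past 8-fold there were 426 genes on the astrocyte side and 523 on the neuron side, and past 32-fold 208 and 292. Of 7107 genes compared with a value in all 6 libraries, 954 (13.4%) were higher by 2-fold or more in the astrocyte-labelled library at 0, 6 and 12 h, and 1232 (17.3%) in the neuron-labelled library. The floor passed through a dense part of the data: the higher control lay between 1 and 1.1 FPKM for 381 of the compared genes and between 0.9 and 1 FPKM for 459 genes left out.

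**Figure D1:**
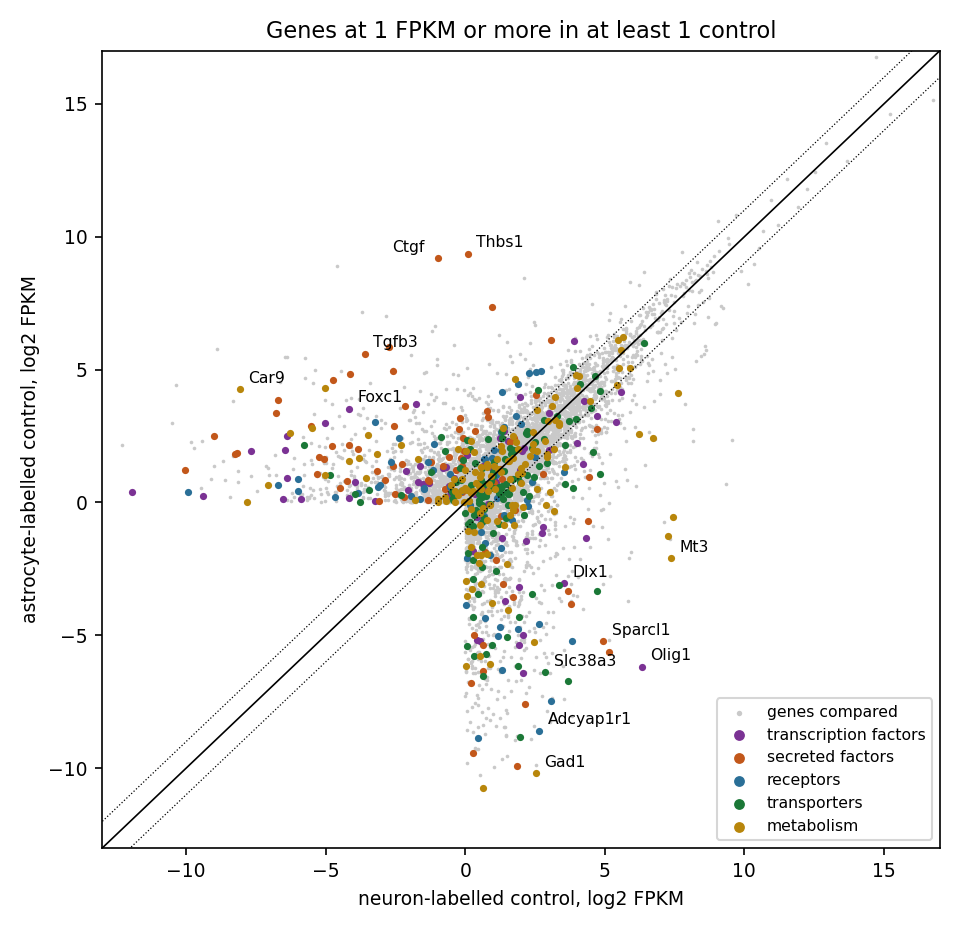
Each point is a gene with a value in both controls and 1 FPKM or more in at least 1, with the neuron-labelled control on the x axis and the astrocyte-labelled control on the y axis (both log2 FPKM), coloured by gene class. The solid line marks equal values and the dotted lines 2-fold differences: 1337 genes lie on or above the upper dotted line and 1565 on or below the lower.

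Astrocytes are the glial cells that take up glutamate and potassium around synapses, supply neurons with lactate and glutamine, and secrete factors on which synapses form. Hippocampal neurons are either glutamatergic, using vesicular glutamate transporters, or GABAergic, using glutamate decarboxylase and the vesicular GABA transporter. Cultures prepared from whole tissue can also hold oligodendrocyte precursors, vascular mural cells, meningeal fibroblasts and microglia.

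The markers of these cell types did not all follow the labels. Of 11 astrocyte markers listed with values on both sides, 10 had the higher value in the neuron-labelled control. Gfap, the glial intermediate filament, was at 6.23 FPKM in the astrocyte-labelled against 96.7 FPKM in the neuron-labelled control. Only Fgfr3 among them was higher in the astrocyte-labelled control, at 22.1 against 3.7 FPKM. The 12 astrocyte markers summed to 55.3 FPKM in the astrocyte-labelled and 373 FPKM in the neuron-labelled control. Neuron markers summed to 4.34 and 94.1 FPKM, oligodendrocyte precursor markers to 1.64 and 110 FPKM, and oligodendrocyte markers to 5.83 and 44.2 FPKM. Of the 94.1 FPKM of neuron markers, Tubb3, Slc32a1 and Nefl held 30, 21.7 and 14.7 FPKM. Rbfox3, Snap25 and Syt1 were below 1 FPKM there, at 0.774, 0.862 and 0.65 FPKM. Stmn2 lay within 2-fold, at 2.43 and 3.41 FPKM. Of the 110 FPKM, Olig1 and Olig2 held 80.6 and 25.9 FPKM, while the precursor marker Cspg4 was at 1.32 against 0.397 FPKM. Cnp alone held 36.4 of the 44.2 FPKM of oligodendrocyte markers, while Mog was at 2.21 against 1.69 FPKM. Pericyte and smooth muscle markers had the higher sum in the astrocyte-labelled control, 425 FPKM against 4.52 FPKM. Tagln alone held 353 of the 425 FPKM. Fibroblast markers likewise summed to 94.4 and 0.0697 FPKM, but of these Dcn and Lum were only at 0.0665 and 0.612 FPKM in the astrocyte-labelled control. Acta2, smooth muscle actin, was at 54.4 against 0.00209 FPKM, whereas Myh11 and Rgs5, defining mural cell genes, were at 0.00821 and 0.00424 FPKM there. Endothelial markers summed to 0.547 and 0.0271 FPKM. Microglial markers summed to 4.14 and 0.298 FPKM, and Tmem119 alone was at 4.09 FPKM in the astrocyte-labelled control while the other microglial markers were each under 0.1 FPKM there. The libraries are therefore called astrocyte-labelled and neuron-labelled throughout. In such bulk RNA, fewer cells of a type and less RNA per cell cannot be told apart, and the part that these other cells had in the differences below was not tested.

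Genes were described in 5 classes through 32 lists of related genes and 22 families defined by symbol. Of 1576 list members with a row in the deposited table, 474 could be compared: 153 were higher by 2-fold or more in the astrocyte-labelled control, 160 in the neuron-labelled control and 161 lay within 2-fold. Another 12 were blank in the neuron-labelled and 12 in the astrocyte-labelled control, and 1078 stayed below 1 FPKM or were blank in both. The shares on the astrocyte side were 64.6% of 79 secreted factors, 43.8% of 64 receptors, 43.3% of 67 transcription factors, 17.6% of 142 metabolic genes and 16.4% of 122 transporters, beside 18.7% of all genes. On the neuron side they were 26.6%, 37.5%, 32.8%, 33.1% and 37.7%, beside 21.9%. The counts of single lists below stand beside the same 18.7% and 21.9% of all genes compared. These shares describe members that passed the floor in at least 1 control, and such members had to differ where they were low in the other. Members on long genes seldom passed it: 1 FPKM was reached by 47.1% of members spanning up to 10 kb of the genome, 33% between 10 and 50 kb, 17.9% between 50 and 200 kb and 3.49% above 200 kb. Levels of different genes were therefore not ranked. Sums over markers and ratios between a pair of genes are given only to compare the libraries.

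**Figure D2:**
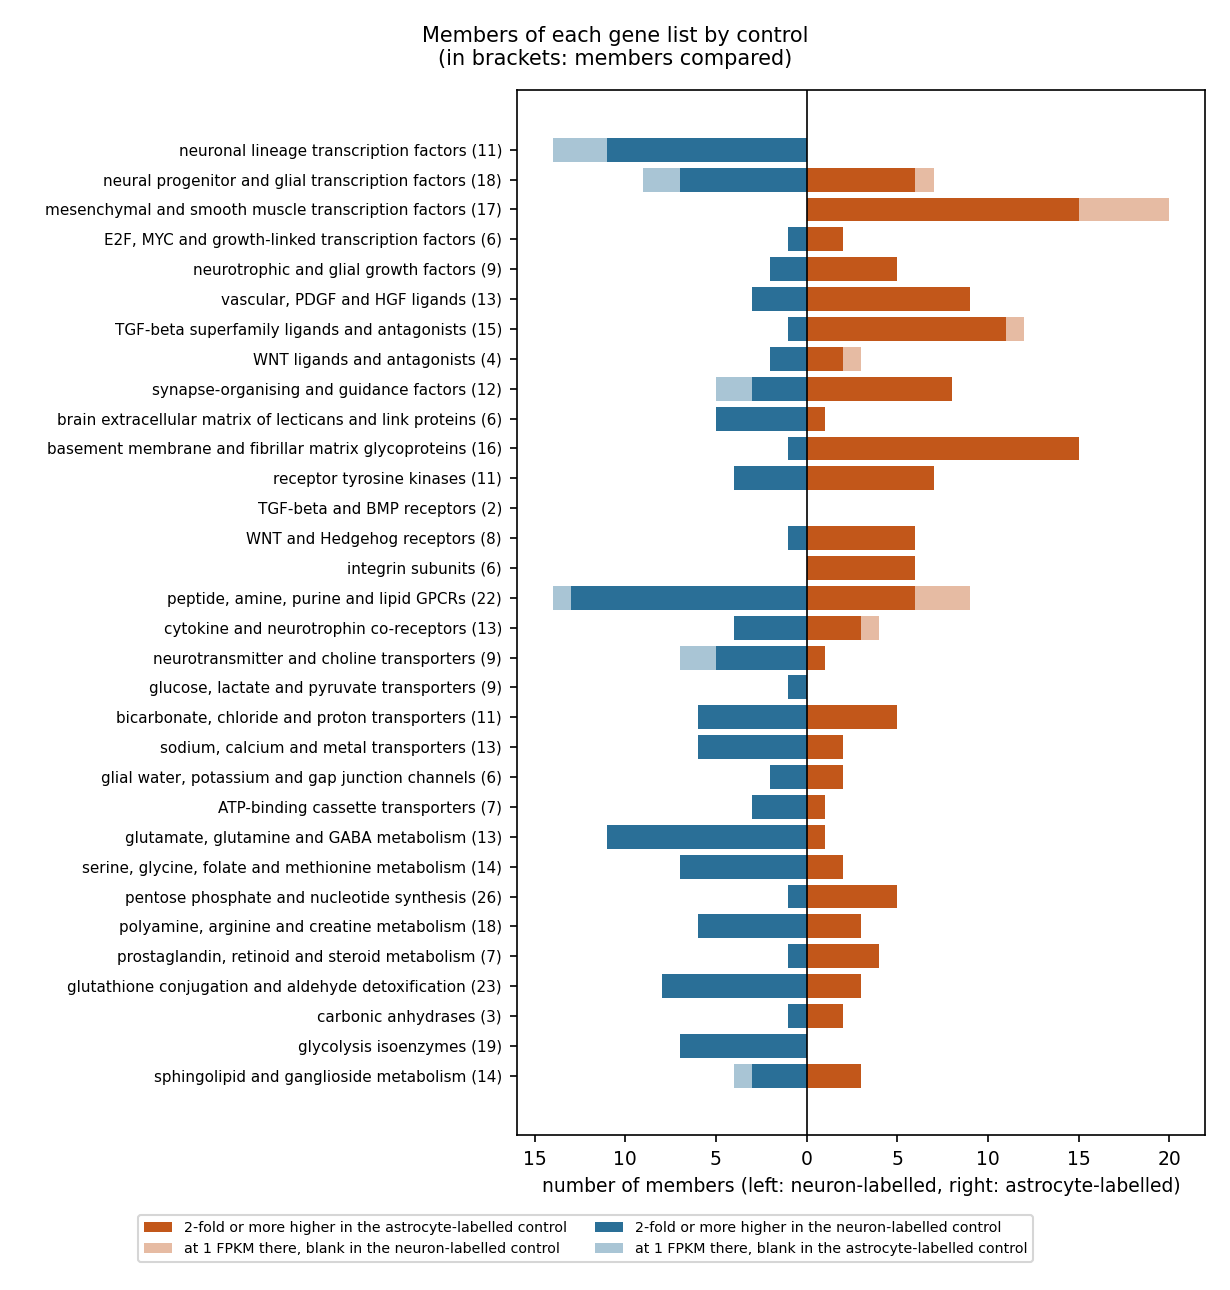
Number of members of each list higher by 2-fold or more in the astrocyte-labelled control (right) or in the neuron-labelled control (left), with members blank in the other control in pale colour and the number compared in brackets. Mesenchymal transcription factors and matrix glycoproteins extend to the right with 15 members each before blanks, and neuronal lineage factors extend only to the left with 11.

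Transcription factors that set neuronal fate were higher in the neuron-labelled control in every case that could be compared. Of 44 neuronal lineage factors in the table, 11 were compared and all 11 were at least 2-fold higher there, with a median difference of -3.69. Dlx1, a homeobox factor of forebrain inhibitory neurons, was at 11.6, 11.0 and 10.1 FPKM in the neuron-labelled control, 6 h and 12 h libraries and at 0.122, 0.14 and 0.156 FPKM in the astrocyte-labelled ones. It was thus at least 2-fold higher in the neuron-labelled library at 0, 6 and 12 h. So were 1232 (17.3%) of the 7107 genes compared with a value in all 6 libraries. Its relatives Dlx2 and Dlx5 differed in the same direction, by -5.13 and -5.72, and Dlx6 was at 1.08 FPKM in the neuron-labelled control and blank in the astrocyte-labelled control. Sp9, a zinc finger factor of striatal and cortical inhibitory neurons, was at 0.0118 against 4.17 FPKM. Lhx6, which specifies interneurons from the medial ganglionic eminence, was blank against 1.52 FPKM, and Scrt1, a neuronal repressor of the Snail family, was blank against 2.61 FPKM. The smallest differences of the list were those of Sox11 and Sox4, factors of immature neurons that are also found in other cells. Sox11 was at 9.61 FPKM in the astrocyte-labelled and 26.4 FPKM in the neuron-labelled control, a difference of -1.46, and Sox4 was at 17.9 and 48.4 FPKM. Pou3f4, a POU factor of the developing forebrain, was at 0.532 and 6.85 FPKM.

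Factors of neural progenitors and glia split between the controls. Of 18 compared, 6 were higher by 2-fold or more in the astrocyte-labelled control, 7 in the neuron-labelled control and 5 lay within 2-fold. The oligodendrocyte lineage factors Olig1, Olig2, Nkx2-2 and Sox8 were on the neuron side. Olig1 was at 0.0138 against 80.6 FPKM, a difference of -12.52, and was between 78.5 and 85.4 FPKM in all 3 neuron-labelled libraries. Olig2 was blank in the astrocyte-labelled control and at 25.9 FPKM in the other, and Nkx2-2, which acts with it in the oligodendrocyte lineage, was at 0.0243 against 3.79 FPKM. Sox8 was at 0.396 against 20.2 FPKM. Hes5, a Notch effector of radial glia, was blank against 3.58 FPKM, while Hes1, its better known relative, was higher in the astrocyte-labelled control with 5.34 against 2.38 FPKM. That order did not recur at 12 h, where Hes1 was at 3.7 FPKM in the astrocyte-labelled and 4.7 FPKM in the neuron-labelled library.

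On the astrocyte side stood Id1 and Id3, inhibitors of basic helix-loop-helix factors induced by BMP signalling, and the ZIC zinc finger genes of dorsal midline and meninges. Id3 was at 67.4 against 15.0 FPKM and Id1 at 15.5 against 3.92 FPKM, while their relative Id4 lay within 2-fold at 10.3 and 8.06 FPKM. Zic1 reached 4.77 FPKM in the astrocyte-labelled control and was blank in all 3 neuron-labelled libraries. Zic2 was at 3.83 against 0.00491 FPKM and Zic5 at 1.08 against 0.0167 FPKM. Emx2, a homeobox factor of the dorsal telencephalon from which the hippocampus forms, was at 1.66 against 0.405 FPKM. Sox9, the factor common to most astrocytes, was within 2-fold at 2.34 and 3.86 FPKM. Among SOX genes 7 were compared and 6 were at least 2-fold higher in the neuron-labelled control. All 33 HOX genes in the table, which pattern the hindbrain, spinal cord and trunk, stayed below 1 FPKM or blank in both controls.

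Mesenchymal and smooth muscle factors were higher in the astrocyte-labelled control. Of 17 compared, 15 were at least 2-fold higher there, none in the neuron-labelled control, and Zeb1 and Nr2f1 lay within 2-fold. The median difference was 4.72. Twist1, a factor of neural crest and mesoderm, was at 10.4, 12.4 and 11.2 FPKM in the astrocyte-labelled control, 6 h and 12 h libraries, was blank in the neuron-labelled control, and was at 0.0226 and 0.0117 FPKM in the neuron-labelled insulin libraries. Foxc1 and Foxc2, forkhead factors needed for the meninges, were at 11.6 against 0.0553 FPKM and at 3.53 FPKM against blank. Tbx18, a factor known from pericytes and smooth muscle, was at 1.26 FPKM against blank, and Tbx15 was at 1.31 against 0.000256 FPKM. Osr1 was at 5.69 against 0.0118 FPKM, Msx1 at 7.84 against 0.0308 FPKM, and Six2 at 2.18 FPKM against blank. Klf4 was at 13.0 against 0.297 FPKM, and Srf, the serum response factor that drives actin genes, at 6.52 against 2.64 FPKM. These factors were high in the library in which 6 of 6 pericyte and smooth muscle markers with a value in both controls, at any level, were also higher. Of these 6, Myh11 and Des were below the floor, at 0.00821 and 0.0297 FPKM there. So were 3 of 3 fibroblast markers with both values higher in that library, which alone had been grown in serum. Any part of such cells or of serum in these factors was not tested.

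**Figure D3:**
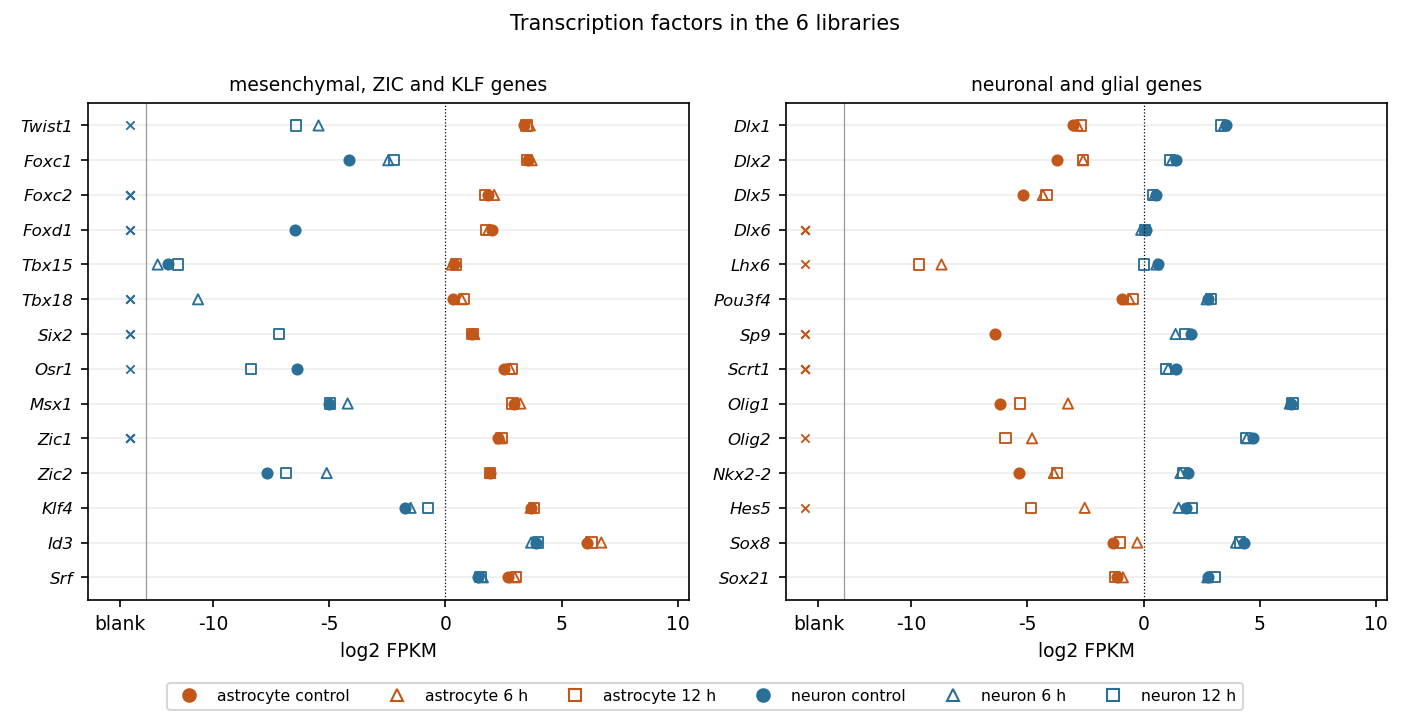
Log2 FPKM (x axis) of transcription factors in all 6 libraries, with orange for the astrocyte-labelled and blue for the neuron-labelled libraries, circles for controls, triangles for 6 h, squares for 12 h and crosses, which can overlie each other, for blanks. In the left panel the astrocyte-labelled libraries lie to the right, as for Twist1 with 10.4 FPKM against blank, and in the right panel the neuron-labelled libraries do, as for Olig1 with 0.0138 against 80.6 FPKM.

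Secreted factors were the class most often found at higher values in the astrocyte-labelled control: 51 of 79 were at least 2-fold higher there, 21 in the neuron-labelled control, and 7 within 2-fold. The CCN proteins, matrix-bound signalling factors whose genes are known targets of serum, YAP and TGF-beta, differed by large amounts. Ctgf (Ccn2) was at 582, 741 and 744 FPKM in the astrocyte-labelled control, 6 h and 12 h libraries and at 0.505, 0.813 and 0.877 FPKM in the neuron-labelled ones, a difference of 10.17 between the controls. Cyr61 (Ccn1) was at 165, 162 and 198 FPKM against 1.94, 4.05 and 2.61 FPKM. Thbs1, thrombospondin 1, a matrix protein that promotes synapse formation when astrocytes release it, was at 660, 605 and 703 FPKM against 1.06, 1.41 and 1.5 FPKM. In none of the 3 genes did the libraries of the 2 labels overlap. How many other genes do the same is not given here. A gap of 2-fold or more towards the astrocyte label at 0, 6 and 12 h was not particular to these genes. It was seen in 954 (13.4%) of the 7107 compared genes that had all 6 values.

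The 250 bases before the start of these 3 genes are shown because the genes were high together and because TEAD factors, through which YAP acts, bind the core GGAATG. They are from RefSeq assembly GRCr8, a later build than that of the deposited values, and are written on the strand of the gene from 5′ to 3′. Capitals mark GGAATG, or CATTCC where the match is on the other strand.
Ctgf, chr1:22624615-22624864, minus strand: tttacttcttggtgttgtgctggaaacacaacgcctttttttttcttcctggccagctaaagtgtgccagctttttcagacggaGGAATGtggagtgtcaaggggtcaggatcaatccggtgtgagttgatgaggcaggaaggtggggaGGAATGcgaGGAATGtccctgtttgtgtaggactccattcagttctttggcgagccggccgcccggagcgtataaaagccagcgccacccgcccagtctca
Cyr61, chr2:237225690-237225939, minus strand: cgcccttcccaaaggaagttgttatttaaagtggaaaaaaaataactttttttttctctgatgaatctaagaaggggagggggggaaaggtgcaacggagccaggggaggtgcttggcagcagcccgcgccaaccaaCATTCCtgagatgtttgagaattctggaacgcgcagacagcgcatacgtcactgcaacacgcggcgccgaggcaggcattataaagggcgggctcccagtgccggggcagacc
Thbs1, chr3:125510000-125510249, plus strand: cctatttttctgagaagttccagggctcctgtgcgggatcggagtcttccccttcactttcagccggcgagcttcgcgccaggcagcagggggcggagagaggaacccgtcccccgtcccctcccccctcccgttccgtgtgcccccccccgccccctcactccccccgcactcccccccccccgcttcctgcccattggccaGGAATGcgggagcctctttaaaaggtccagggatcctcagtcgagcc
The Ctgf sequence held 3 matches, at 166 to 161, 101 to 96 and 92 to 87 bases before the start. Cyr61 held 1 match on the other strand at 113 to 108 bases, and Thbs1 held 1 match at 47 to 42 bases. Of 27457 promoters in the RefSeq table, 3228 (11.8%) held the motif on either strand in the same window. Of 4598 compared genes with a promoter there, 472 (10.3%) held it. Among list members with a promoter, 21 of 119 (17.6%) higher by 2-fold or more in the astrocyte-labelled control held it. On the neuron side 10 of 127 (7.87%) did. Most list members on the astrocyte side thus lacked it, and these shares were not tested. A match is a run of letters and not a measured binding site, and the motif was chosen with these values known. The TEAD partner Yap1 was at 2.44 against 0.574 FPKM and Tead3 at 1.71 against 0.0646 FPKM, genes that were likewise chosen after their values were seen. Other TEAD genes are not reported here. Any part of YAP, TEAD factors or serum in these differences was not tested, and serum differed together with cell type.

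Other vascular ligands followed the CCN genes. In the list of vascular, PDGF and HGF ligands, which includes them, 9 of 13 compared were higher in the astrocyte-labelled control, 3 in the other, and the median difference was 5.80. Edn1, the vasoconstrictor endothelin 1, was at 10.3 against 0.00905 FPKM. The 3 on the neuron side were Apln, Angptl4 and Vegfb, with 0.0125 against 1.57, 0.226 against 2.15 and 0.817 against 3.41 FPKM. Values as low as 0.01 FPKM rest on an unknown number of fragments, so the size of such a difference has no known precision.

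The TGF-beta superfamily, which controls matrix production and growth arrest, had 11 of 15 compared members higher in the astrocyte-labelled control and a median difference of 3.73. Tgfb3 was at 48.7, 47.9 and 63.9 FPKM in the 3 astrocyte-labelled libraries and between 0.0819 and 0.134 FPKM in the neuron-labelled ones. Inhba, the activin A subunit, was at 7.34 against 0.0219 FPKM, its antagonist Fst, follistatin, at 1.88 FPKM against blank, and Fstl1, a follistatin relative, at 30.7 against 0.165 FPKM. Both ligand and antagonist of activin were thus on the same side. Ltbp2, a latent TGF-beta binding protein of microfibrils, was at 5.72 against 0.00193 FPKM, and the BMP ligands Bmp3 and Bmp4 were at 4.46 against 0.0563 and 3.21 against 0.89 FPKM. Gdf15, a stress-induced member of the family, went the other way with 0.613 against 21 FPKM, and was at 29.1 and 35.1 FPKM in the neuron-labelled libraries at 6 h and 12 h.

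Factors by which glia organise synapses did not all stand on one side. Of 12 synapse-organising and guidance factors, 8 were higher by 2-fold or more in the astrocyte-labelled and 3 in the neuron-labelled control. The clearest contrast was within the SPARC family. Sparc, an antagonist of synapse formation, was at 69.1 FPKM in the astrocyte-labelled and 8.49 FPKM in the neuron-labelled control, while Sparcl1 (hevin), which promotes synapses and is known from mature astrocytes, was at 0.0271 and 30.7 FPKM. The log2 ratio of Sparc to Sparcl1 was thus 11.32 in the astrocyte-labelled and -1.85 in the neuron-labelled control. The class 3 semaphorins Sema3c and Sema3d, repulsive guidance cues, were at 4.34 against 0.0367 and 3.5 against 0.00329 FPKM. Efnb3, a midline ephrin, was at 0.07 against 13.8 FPKM, and the cerebellins Cbln2 and Cbln4, synaptic organisers released by neurons, were blank against 2.22 and 1.92 FPKM.

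The matrix itself divided by type. The perineuronal matrix of the brain, made of lecticans and their partners, had 5 of 6 compared members higher in the neuron-labelled control. Bcan, brevican, was at 0.02 against 35.6 FPKM, Ptprz1, a receptor phosphatase shed as phosphacan, at 0.00103 against 3.63 FPKM, and Ncan, neurocan, at 6.71 against 26.1 FPKM. The exception was Tnc, tenascin C, at 2.87 against 0.425 FPKM, whereas its brain relative Tnr was at 0.00898 against 1.16 FPKM. Basement membrane and fibrillar matrix glycoproteins had 15 of 16 compared members higher in the astrocyte-labelled control. Spp1, osteopontin, was at 57.5 against 0.149 FPKM, Bgn, biglycan, at 24.3 against 0.0372 FPKM, and Fn1, fibronectin, which is also a fibroblast marker, at 28.2 against 0.0577 FPKM. All 4 laminin chains compared were on that side, with Lamb2 at 9.38 against 1.76 FPKM. Agrn, agrin, the organiser of the neuromuscular junction, was the only member higher in the neuron-labelled control, at 0.706 against 2.44 FPKM.

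Growth factors for neurons and glia were fewer. Only 9 of 33 reached the floor, 5 higher in the astrocyte-labelled control, 2 in the neuron-labelled control and 2 within 2-fold. Cntf, the ciliary neurotrophic factor of astrocytes, was at 6.41, 5.38 and 4.77 FPKM in the 3 astrocyte-labelled libraries and at 1.27, 2.04 and 2.71 FPKM in the neuron-labelled ones, so its difference was 2.34 in the controls and 0.82 at 12 h. Clcf1 and Lif, cytokines that signal through the same gp130 receptor, differed by 2.85 and 2.37 in the controls and by 0.21 and 1.09 at 12 h. Ptn and Mdk, the heparin-binding factors pleiotrophin and midkine, were higher in the neuron-labelled control, Mdk at 1.93 against 21.4 FPKM. Among WNT ligands, Wnt7a, which acts on brain vessels and oligodendrocyte precursors, was at 0.00145 against 1.22 FPKM, and Wnt5a, a noncanonical ligand, at 1.06 against 0.401 FPKM. Rspo1, an enhancer of WNT signalling, was at 1.32 FPKM against blank.

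**Figure D4:**
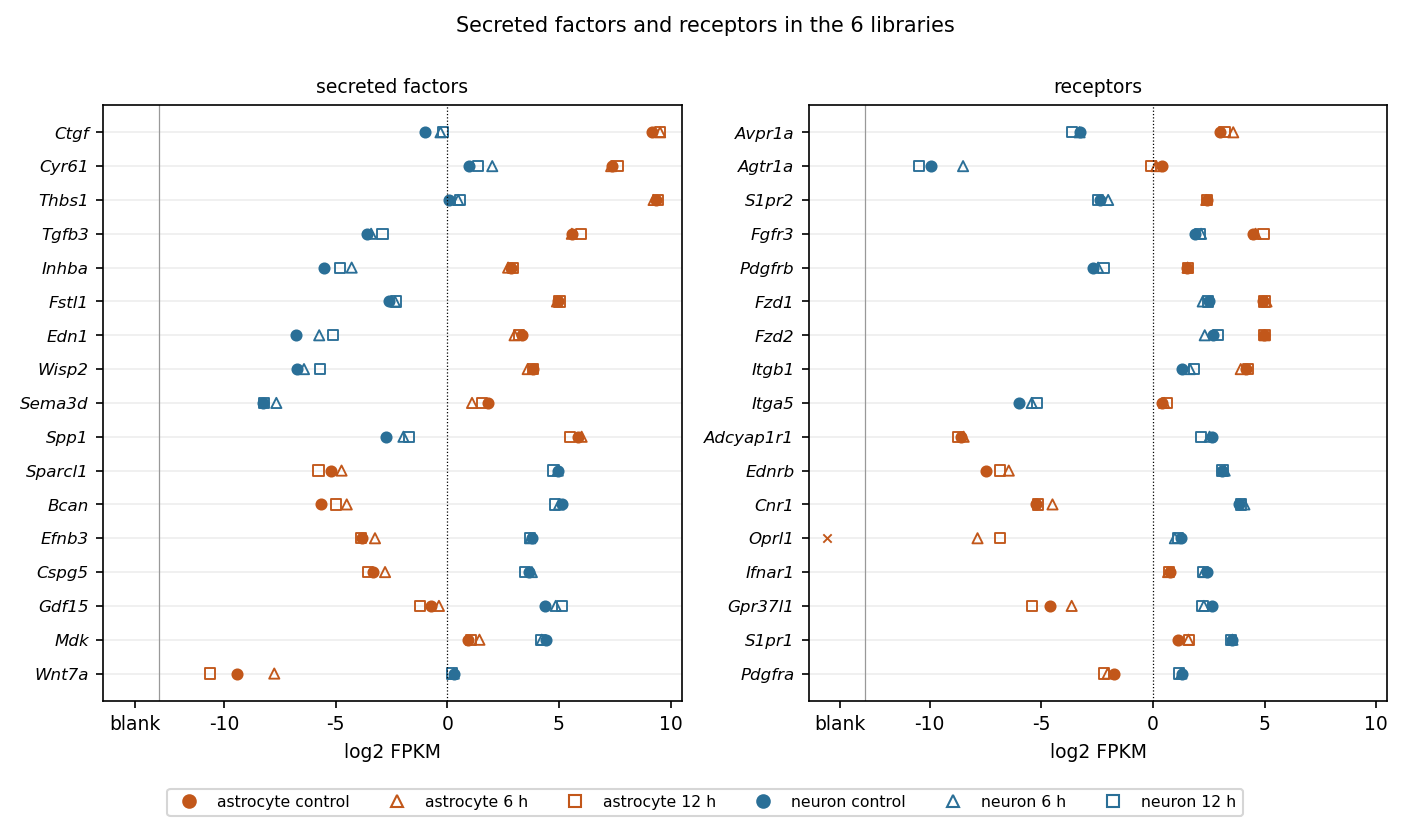
Log2 FPKM (x axis) of secreted factors (left panel) and receptors (right panel) in all 6 libraries, with orange for the astrocyte-labelled and blue for the neuron-labelled libraries, circles for controls, triangles for 6 h, squares for 12 h and crosses for blanks. Rows from Ctgf to Spp1 and from Avpr1a to Itga5 have the astrocyte-labelled libraries to the right, and the rows below them the neuron-labelled libraries, as for Sparcl1 with 0.0271 against 30.7 FPKM.

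Receptors of several families divided between the controls. Of 64 compared, 28 were higher by 2-fold or more in the astrocyte-labelled and 24 in the neuron-labelled control. Pdgfrb, the PDGF receptor of pericytes and smooth muscle, was at 2.88 against 0.157 FPKM, while Pdgfra, the receptor of oligodendrocyte precursors, was at 0.302 against 2.46 FPKM. The log2 ratio of Pdgfrb to Pdgfra was 3.25 in the astrocyte-labelled and -3.97 in the neuron-labelled control. Fgfr3, the FGF receptor best known from astrocytes, was at 22.1 against 3.7 FPKM, while Fgfr1 was at 0.7 against 1.6 FPKM. The collagen receptors Ddr1 and Ddr2 were both on the astrocyte side, at 6.21 against 2.44 and 1.29 against 0.0704 FPKM. In all, 7 of 11 receptor tyrosine kinases (63.6%) were higher in the astrocyte-labelled control, beside 18.7% of all genes. The other 4 (36.4%) were higher in the neuron-labelled control, beside 21.9%.

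Adhesion and WNT receptors were mostly higher in the astrocyte-labelled control. All 6 integrin subunits compared were at least 2-fold higher there. Itgb1, the subunit shared by most matrix-binding integrins, was at 18.0 against 2.5 FPKM, and Itga5, its partner for fibronectin, at 1.34 against 0.0156 FPKM. Of 8 WNT and Hedgehog receptors, 6 were on that side, among them Fzd1 at 30.4 against 5.74 FPKM and Fzd2 at 31.0 against 6.48 FPKM. Fzd9 was on the neuron side with 0.0493 against 1.64 FPKM. The BMP receptors Bmpr1a and Bmpr2, the only TGF-beta family receptors above the floor, lay within 2-fold, at 1.35 and 0.889 FPKM and at 3.98 and 2.06 FPKM. The TWEAK receptor Tnfrsf12a was at 29.0 against 4.91 FPKM, and the interleukin 1 receptor Il1r1 at 1.87 against 0.0158 FPKM.

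G protein-coupled receptors were more often higher in the neuron-labelled control, with 13 of 22 compared (59.1%), beside 21.9% of all genes. In the astrocyte-labelled control 6 (27.3%) were higher, beside 18.7%. Cnr1, the CB1 cannabinoid receptor of inhibitory terminals, was at 14.3, 17.1 and 15.4 FPKM in the neuron-labelled libraries and between 0.0268 and 0.0444 FPKM in the astrocyte-labelled ones. Adcyap1r1, the PACAP receptor, was at 0.0026 against 6.27 FPKM, and Oprl1, the nociceptin receptor, was blank against 2.41 FPKM. A pair of receptors known from astrocytes in tissue were on the same side: Ednrb, an endothelin receptor, at 0.00568 against 8.48 FPKM, and Gpr37l1 at 0.0417 against 6.19 FPKM. The endothelin ligand Edn1 and its receptor Ednrb were thus high in different cultures. The other endothelin receptor, Ednra, was below the floor in both, at 0.0973 against 0.0135 FPKM. On the astrocyte side were Avpr1a and Agtr1a. Avpr1a, for vasopressin, was at 8.1 against 0.106 FPKM, and Agtr1a, for angiotensin II, at 1.32 against 0.00103 FPKM. For sphingosine 1-phosphate the receptors parted, with S1pr2 at 5.39 against 0.193 FPKM and S1pr1 at 2.19 against 11.5 FPKM.

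Transporters leaned to the neuron-labelled control, where 46 of 122 compared (37.7%) were at least 2-fold higher, beside 21.9% of all genes. In the astrocyte-labelled control 20 (16.4%) were, beside 18.7%, and 56 lay within 2-fold. Over all solute carrier genes the numbers were 33, 14 and 44 of 91. Slc32a1, which loads GABA into vesicles, was at 21.7, 17.2 and 15.1 FPKM in the neuron-labelled control, 6 h and 12 h libraries and blank in the astrocyte-labelled control. The vesicular glutamate transporters were at or near 0 in both, with Slc17a7 at 0.00241 FPKM in the neuron-labelled control and blank in the other, and Slc17a6 at 0.00134 and 0.00164 FPKM. Slc1a3 (GLAST), the glutamate carrier of astrocytes, was at 0.115 FPKM in the astrocyte-labelled and 10.4 FPKM in the neuron-labelled control. Slc1a2 (GLT-1), the other astrocytic carrier, lies on a gene spanning 130.3 kb and was below the floor in both, at 0.000946 and 0.301 FPKM.

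Several amino acid carriers were also on the neuron side. Slc38a3, a glutamine transporter of astrocytes, was at 0.0119 against 7.31 FPKM. Slc7a11, the cystine and glutamate exchanger, was at 0.0924 against 5.25 FPKM, and its heavy chain Slc3a2 at 3.76 against 24 FPKM. The large neutral amino acid carrier Slc7a5, which shares that heavy chain, was at 1.61 against 11.8 FPKM. Slc38a2, a neutral amino acid carrier, went the other way at 18.6 against 6.16 FPKM. Slc6a6, the taurine transporter, was the only neurotransmitter or choline transporter higher by 2-fold or more in the astrocyte-labelled control, at 5.49 against 0.544 FPKM.

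Of 13 sodium, calcium and metal transporters compared, 2 were higher in the astrocyte-labelled control, 6 in the neuron-labelled control and 5 lay within 2-fold, and the beta subunits of the sodium pump divided. Atp1b1 was at 1.44 against 14.6 FPKM and Atp1b2, known from glia as an adhesion molecule, at 0.0141 against 3.67 FPKM, whereas Atp1b3 was at 2.83 against 1.27 FPKM. Of the cation chloride cotransporters, Slc12a2 (NKCC1), which raises chloride in the cell, was at 2.21 against 0.43 FPKM, and Slc12a5 (KCC2), which lowers it in mature neurons, at 0.0182 against 1.25 FPKM. Aqp4, the water channel of astrocyte endfeet, was at 0.0985 against 26.6 FPKM, and Aqp1, a water channel known from choroid plexus and vessels, at 4.46 against 0.0184 FPKM. Choroid plexus markers were near 0 in both, summing to 0.00516 and 0.00244 FPKM. The gap junction gene Gja1 (connexin 43) lay within 2-fold at 11.9 and 22.6 FPKM.

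Of 9 carriers of glucose, lactate and pyruvate compared, 8 lay within 2-fold, beside 4244 of all 7146 genes. Slc2a1 (GLUT1) was at 1.06 and 1.41 FPKM, and Slc16a1 (MCT1), a lactate carrier, at 1.21 and 1.64 FPKM. Slc16a3 (MCT4), the lactate exporter of astrocytes, stayed below the floor in both, at 0.195 and 0.0263 FPKM. The ninth was Slc2a8, at 0.669 against 1.59 FPKM.

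Metabolic genes were within 2-fold in 70 of 142 cases, with 47 higher in the neuron-labelled control and 25 in the astrocyte-labelled control. Of all 7146 genes compared, 4244 lay within 2-fold. Glutamate, glutamine and GABA metabolism leaned furthest to the neuron side, with 11 of 13 compared and a median of -2.55. In the 12 h libraries 7 members were at least 2-fold higher on that side. Gad1, glutamate decarboxylase, which makes GABA, was at 5.78, 5.38 and 3.38 FPKM in the neuron-labelled libraries, at 0.000865 and 0.00144 FPKM in the astrocyte-labelled control and 6 h library, and blank at 12 h. Glul, glutamine synthetase, the enzyme by which astrocytes recycle glutamate, was at 5.32 FPKM in the astrocyte-labelled and 106 FPKM in the neuron-labelled control. Nat8l, which makes the neuronal metabolite N-acetylaspartate, was at 0.0261 against 5.47 FPKM.

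Some isoenzymes of glycolysis separated the controls. None of 19 genes compared was higher by 2-fold or more in the astrocyte-labelled control, 7 were in the neuron-labelled control, and 12 lay within 2-fold, Gapdh among them with 53.8 and 47.8 FPKM. In the 12 h libraries 4 glycolysis genes were at least 2-fold higher on the astrocyte side. Aldoc, the brain and astrocyte aldolase, was at 6.02 against 73.9 FPKM, while Aldoa was at 33.4 and 45.5 FPKM. Eno2, the neuronal enolase, was at 1.32 against 8.26 FPKM, while Eno1 was at 8.54 and 9.36 FPKM. Ldhb, the lactate dehydrogenase subunit of oxidative tissues, was at 0.801 against 9.12 FPKM, while Ldha, the subunit of glycolytic tissues, was at 15.6 and 9.28 FPKM. The phosphofructokinase pair did not part, as Pfkp and Pfkm were both higher in the neuron-labelled control, at 0.253 against 1.33 and 0.893 against 4.16 FPKM. The log2 ratio of Ldha to Ldhb was 4.28 in the astrocyte-labelled and 0.02 in the neuron-labelled control, and at 12 h it was 4.94 and 1.18.

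Of 14 genes of serine, glycine, folate and methionine metabolism, 7 (50%) were higher in the neuron-labelled control, beside 21.9% of all genes. Another 2 (14.3%) were higher in the astrocyte-labelled control, beside 18.7%, and 5 lay within 2-fold. In the 6 h and 12 h libraries 0 and 1 members were at least 2-fold higher on the astrocyte side. Psat1 and Phgdh, enzymes of serine synthesis, known in brain as a task of astrocytes, were at 0.937 against 7.49 FPKM and at 0.937 against 3.43 FPKM. Creatine kinase B, Ckb, was at 17.4 against 198 FPKM. The metallothioneins, metal-binding proteins induced by zinc and glucocorticoids, were among the largest differences of the class. Mt3, the brain form, was at 0.234, 0.63 and 0.138 FPKM in the astrocyte-labelled libraries and at 166, 157 and 164 FPKM in the neuron-labelled ones. Mt1a and Mt2A were at 0.418 against 155 and 0.688 against 175 FPKM, with the reservation that reads of such short, similar genes can be shared with close copies. They belong to the list of glutathione conjugation and detoxification, of which 8 of 23 (34.8%) were higher in the neuron-labelled control, beside 21.9% of all genes. In this list 12 lay within 2-fold and 3 (13%) were higher in the astrocyte-labelled control, beside 18.7%. The 3 were Gstm2, a glutathione transferase, at 6.16 against 0.0128 FPKM, and the peroxidases Gpx7 and Gpx8, which act in the endoplasmic reticulum, at 3.55 against 0.11 and 25.4 against 3.47 FPKM.

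On the astrocyte side stood a carbonic anhydrase and enzymes of collagen, prostaglandin and retinoid metabolism. Car9, a cell surface carbonic anhydrase induced by hypoxia, was at 19.4, 22.4 and 22.1 FPKM in the astrocyte-labelled libraries and at 0.0037, 0.0153 and 0.00292 FPKM in the neuron-labelled ones. P4ha1, P4ha2 and P4ha3, subunits of collagen prolyl hydroxylase, differed by 3.31, 4.45 and 5.47, in the library in which Col1a1 and Col3a1, fibrillar collagens and fibroblast markers, were at 44.2 and 21.4 FPKM against 0.0113 and 0.000754 FPKM. The cyclooxygenases Ptgs2 and Ptgs1 were at 5.85 against 0.0892 and 1.57 against 0.00749 FPKM. Cyp26b1, which degrades retinoic acid, was at 6.96 against 0.0221 FPKM, and Cyp1b1, a steroid and retinol oxidising enzyme known from pericytes, at 19.8 against 0.0306 FPKM. Of 26 genes of nucleotide synthesis and the pentose phosphate path, 20 lay within 2-fold, beside 4244 of all 7146 genes. Another 5 (19.2%) were higher in the astrocyte-labelled control, near the 18.7% of all genes, and Taldo1 was higher in the other. Rrm2, the S-phase subunit of ribonucleotide reductase, was at 4.51 against 0.204 FPKM and Tk1, thymidine kinase, at 3.83 against 1.03 FPKM, and Foxm1, a factor of cell division, was at 1.64 against 0.348 FPKM. In the list of E2F, MYC and growth-linked factors to which Foxm1 belongs, 2 of 6 compared were higher in the astrocyte-labelled control, 1 in the other and 3 lay within 2-fold, with a median of 0.13. Of 14 sphingolipid and ganglioside genes, 8 lay within 2-fold and 3 (21.4%) were higher in each control, near the 18.7% and 21.9% of all genes. St8sia3, a neuronal sialyltransferase, was at 1.61 FPKM in the neuron-labelled control and blank in the other. Cers2, which makes ceramides of very long chain, was at 7.03 against 2.55 FPKM, and Sgms2, sphingomyelin synthase 2, at 2.03 against 0.0305 FPKM.

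**Figure D5:**
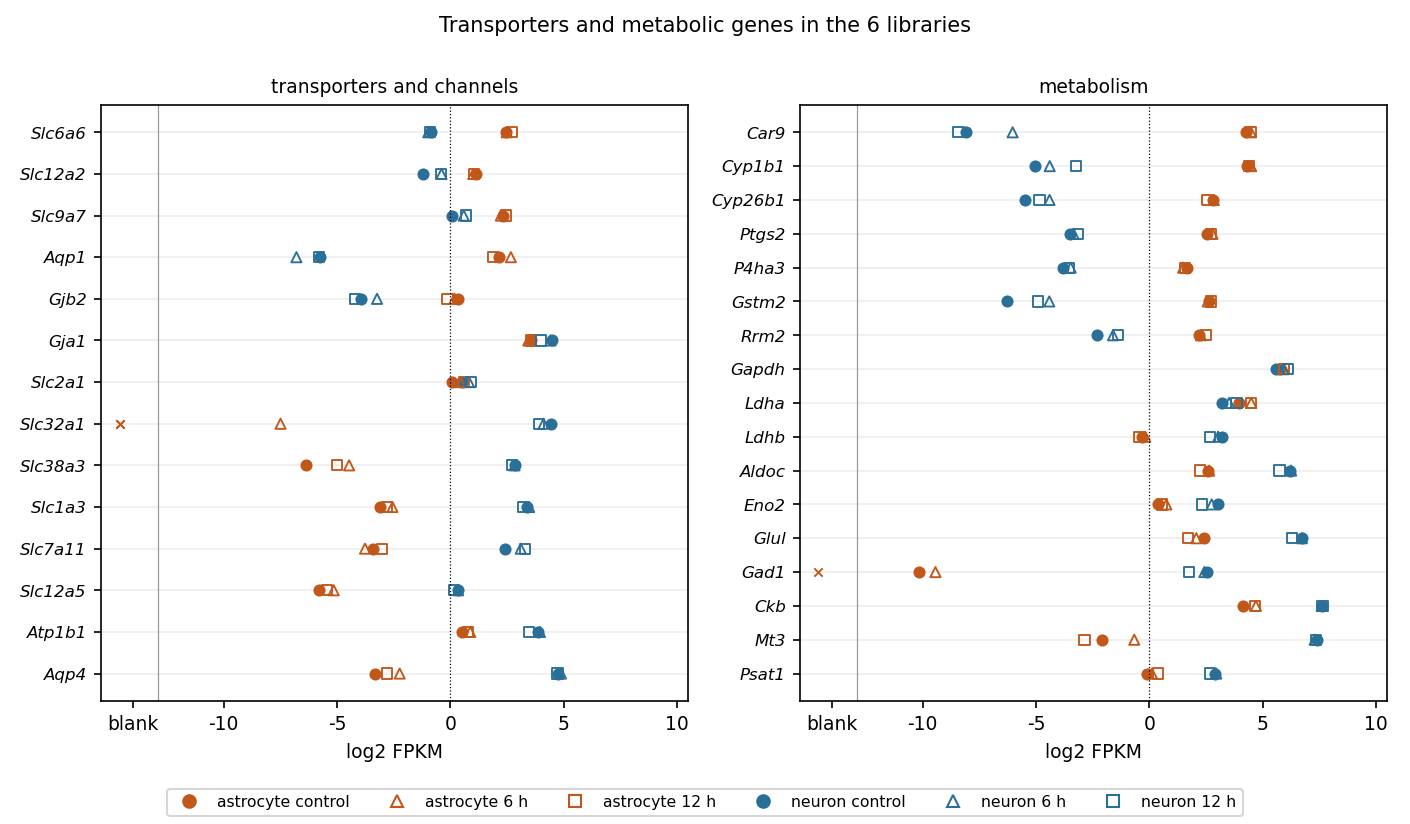
Log2 FPKM (x axis) of transporters and channels (left panel) and metabolic genes (right panel) in all 6 libraries, with orange for the astrocyte-labelled and blue for the neuron-labelled libraries, circles for controls, triangles for 6 h, squares for 12 h and crosses for blanks. Gapdh and Slc2a1 lie within 2-fold in all libraries, whereas Glul at 5.32 and 106 FPKM and Car9 at 19.4 and 0.0037 FPKM in the controls stand far apart in opposite directions.

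Of the 119 genes blank in 1 control, 42 were blank in the neuron-labelled and 77 in the astrocyte-labelled control. Named genes were 25 of the 42 and 50 of the 77, and the rest were mostly locus identifiers and small RNAs. Of the 42, 27 had a value in at least 1 neuron-labelled insulin library, and 1 of them reached 1 FPKM there. Likewise 46 of the 77 had a value in an astrocyte-labelled insulin library, and none reached 1 FPKM. The others were blank in all libraries of that label. Insulin libraries are other conditions, so the level behind a blank in a control is not known. Of the 2902 genes at least 2-fold apart in the controls, 2832 differed in the same direction at 6 h. Genes picked for such a gap can be expected to keep its direction, and the same count over all genes compared is not given here. By the stricter rule of 2-fold and 1 FPKM at 6 h, 1018 of the 1337 and 1263 of the 1565 were called again on the same side.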

How the data were processed

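Per the labels' protocols, total RNA of 6 cultures, 1 library per group, was depleted of ribosomal RNA and sequenced from strand-specific libraries. Values were deposited by the authors as log2 FPKM per gene symbol, in 1 table for build Rnor_6.0. Tools named in the submitters' processing notes were Partek 6.5 and bcl2fastq 2.17.1.14. Aligner, annotation and use of strand were not given in the sources used here, so overlapping and antisense genes may share fragments. The unit follows from the values: Rn45s, at 13.67 over 8.679 kb, would hold 11.3% of fragments in base 2 and 750% in base e. Both shares read the normalised value as plain FPKM and serve only to tell the base. Quantiles of the 6 libraries differed by at most 0.00164, so the deposited log2 values were quantile-normalised and total RNA differences are not visible. Depth is unknown, no counting interval was possible, and the absence of replicates limits the precision.

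Differences, counts at 2-fold and list medians were computed with Python 3.11.15, pandas 2.3.3 and numpy 2.4.6. No pseudocount was added. Members and lists were chosen with earlier results of these data known. For Slc and Cyp families, regulators and pseudogene rows were removed after the table was seen. Symbols were matched exactly or by a unique RefSeq synonym, and 16 of 1592 listed symbols were not used here. Genomic spans for 1573 of 1576 members (99.8%) came from RefSeq.

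Named genes were, per list, the 4 largest differences of each direction and the 2 highest values, all members blank in 1 control, the 10 largest of each direction per class at 5 FPKM or more, the isoenzyme pairs and the markers. Other genes are marked in the text as picked with their values known. Alternatives were a pseudocount of 1, floors of 5 FPKM and none, 4-fold, centring, blanks set to the lowest value, and the 6 h and 12 h libraries. Some genes that the naming rule covers are not reported here.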

Additional observations from a re-analysis of the deposited data

How the results depend on the processing

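The astrocyte-higher and neuron-higher counts, 1337 and 1565, moved to 838 and 984 on the log2(FPKM + 1) scale, 445 and 532 with a floor of 5 FPKM, 4454 and 5248 with no floor, and 703 and 795 at 4-fold. Centring on the median gave 1473 and 1436, setting blanks to the lowest value 1379 and 1642, the 6 h libraries 1229 and 1664, and the 12 h libraries 1191 and 1603. Of the 1337 and 1565 genes, 1018 and 1263 were called in the same direction at 6 h. List medians changed sign in 15 of 393 alternatives for 51 lists and families, and gene differences in 2 of 374 for 94 genes. Of medians at 2-fold or more, those of neurotrophic and glial growth factors (-0.02 in the 12 h libraries), synapse-organising and guidance factors (-2.3 with the 5 FPKM floor), bicarbonate, chloride and proton transporters (2.26 with that floor), carbonic anhydrases (-1.56 with no floor), WNT genes (0.3 with no floor) and semaphorins (-0.75 with no floor, -0.67 with blanks at the lowest value) turned. Of smaller medians, WNT ligands and antagonists turned from -0.17 to 0.39 with no floor and 1.4 with blanks at the lowest value, cytokine and neurotrophin co-receptors from 0.7 to -0.42, KLF genes from 0.8 to -0.05, LIM homeobox genes from -0.96 to 0.34 and ephrin receptors from 0.77 to -1.19 with no floor, and pentose phosphate and nucleotide synthesis from 0.55 to -0.06 and BMP and GDF genes from 0.52 to -5.1 with the 5 FPKM floor. Id4 was at -0.17 in the 6 h libraries and Hes1 at -0.34 in the 12 h libraries. The cause was not tested beyond the change in which genes were included. The neuron-higher members numbered 11 in place of 7 for progenitor and glial factors at 12 h and 2 in place of 4 for receptor tyrosine kinases at 6 h, and the astrocyte-higher growth factors 2 in place of 5 at 12 h. No paired analysis was possible because each group had 1 library and no shared replicate number marks a pairing. Differences resting on values far below 1 FPKM are limited by the unknown depth.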

Other observations

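Some genes outside the lists were at several FPKM in 1 control and blank in the other, and were chosen after their values were seen. Neuropeptides stood on both sides. Sst, somatostatin, a transmitter of a class of interneurons, was at 154, 122 and 48.5 FPKM in the neuron-labelled control, 6 h and 12 h libraries, and blank in the astrocyte-labelled control. Cort, cortistatin, a close relative of somatostatin, was at 4.77, 3.67 and 0.972 FPKM in the neuron-labelled libraries, and Cck, cholecystokinin, at 3.84, 4.08 and 4.14 FPKM. Sst and Cort were thus lowest at 12 h, each in 1 library, while Cck was not. Npvf, an RFamide neuropeptide precursor known from the hypothalamus, was at 23, 16.5 and 17 FPKM in the astrocyte-labelled libraries and blank in all 3 neuron-labelled libraries. Ntsr2, a neurotensin receptor known from astrocytes, was at 12.1 FPKM in the neuron-labelled control, and Slitrk1, a synaptic adhesion protein, at 8.35 FPKM there. Esm1, endocan, a proteoglycan known from endothelial tip cells, was at 5.75, 11.4 and 6.08 FPKM in the astrocyte-labelled libraries, in which the endothelial marker Pecam1 was at 0.00864 FPKM in the control and Cldn5 was blank.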
